A study of Mus musculus with 8 samples.

Results

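The genes described here are 10 regulators of the G1 phase of the cell cycle, measured in E15.5 mouse ventricles with a neuregulin-1 gain of function (*Nrg1GOF*) and in wild-type (WT) ventricles. They are the D cyclins *Ccnd1*, *Ccnd2* and *Ccnd3*, their kinase partners *Cdk4* and *Cdk6*, the CIP/KIP inhibitors *Cdkn1a* (p21), *Cdkn1b* (p27) and *Cdkn1c* (p57), the INK4 inhibitor *Cdkn2c* (p18) and the transcription factor gene *Mycn*. Members were matched by symbol, and all 10 were found among the 53465 genes listed and were among the 15580 genes tested after a filter on low counts. Poly(A) RNA was sequenced from 4 *Nrg1GOF* and 4 WT libraries, 1 ventricle sample each. The *Nrg1GOF* embryos carry a Rosa26 *Nrg1* transgene and a cardiac Cre driver, which the genotype label spells Nkx5.5-Cre and the series title Nkx2.5-Cre, so that the transgene acts in the *Nkx2.5* lineage rather than in one cell type. The WT label names no allele, and whether WT embryos carried Cre or the transgene alone is not given, so that effects of Cre and of neuregulin-1 cannot be told apart. Nothing in the labels says which libraries share a litter, and p-values measure the spread between these libraries. In log2 CPM, WT libraries 1 and 2 correlated at 0.989 and WT libraries 3 and 4 at 0.991. Across these pairs the correlations were 0.9802 to 0.9805. Whether each pair shares an origin is not given, and the main test treats the 4 WT libraries as independent.

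In early G1, growth factor signals raise D cyclins, which bind CDK4 or CDK6 and phosphorylate the retinoblastoma protein, so that E2F factors are released and genes of DNA replication are transcribed. INK4 proteins bind CDK4 and CDK6 directly, whereas CIP/KIP proteins bind cyclin-CDK complexes and restrain CDK2 above all. In the fetal heart, cardiomyocytes still divide, *Mycn* is needed for growth of the compact ventricular wall, and *Cdkn1c* is an imprinted gene of which the maternal copy is expressed.

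The 10 genes moved in both directions. *Cdkn1a*, *Ccnd2*, *Ccnd1* and *Cdkn1c* were higher in *Nrg1GOF*, *Mycn*, *Cdkn2c* and *Cdkn1b* were lower, and *Ccnd3*, *Cdk4* and *Cdk6* did not pass the test (edgeR quasi-likelihood F-test, adjusted p under 0.05 over all tested genes). Thus 7 of the 10 were called, against 28.7% of all tested genes. The members were chosen with earlier results of these data known, so that this comparison and those below are no test of the set. The 4 higher members stand beside 15.9% of tested genes called higher, and the 3 lower members beside 12.8% called lower. In 8 of the 10 the 2 groups of libraries did not overlap, as in 30.7% of tested genes. The median log2 fold change was -0.05 over the 10 members and -0.01 over all tested genes. No member reached a log2 change of 1, and the largest change, that of *Cdkn1a*, exceeded in size that of 93.3% of tested genes.

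**Figure D1:**
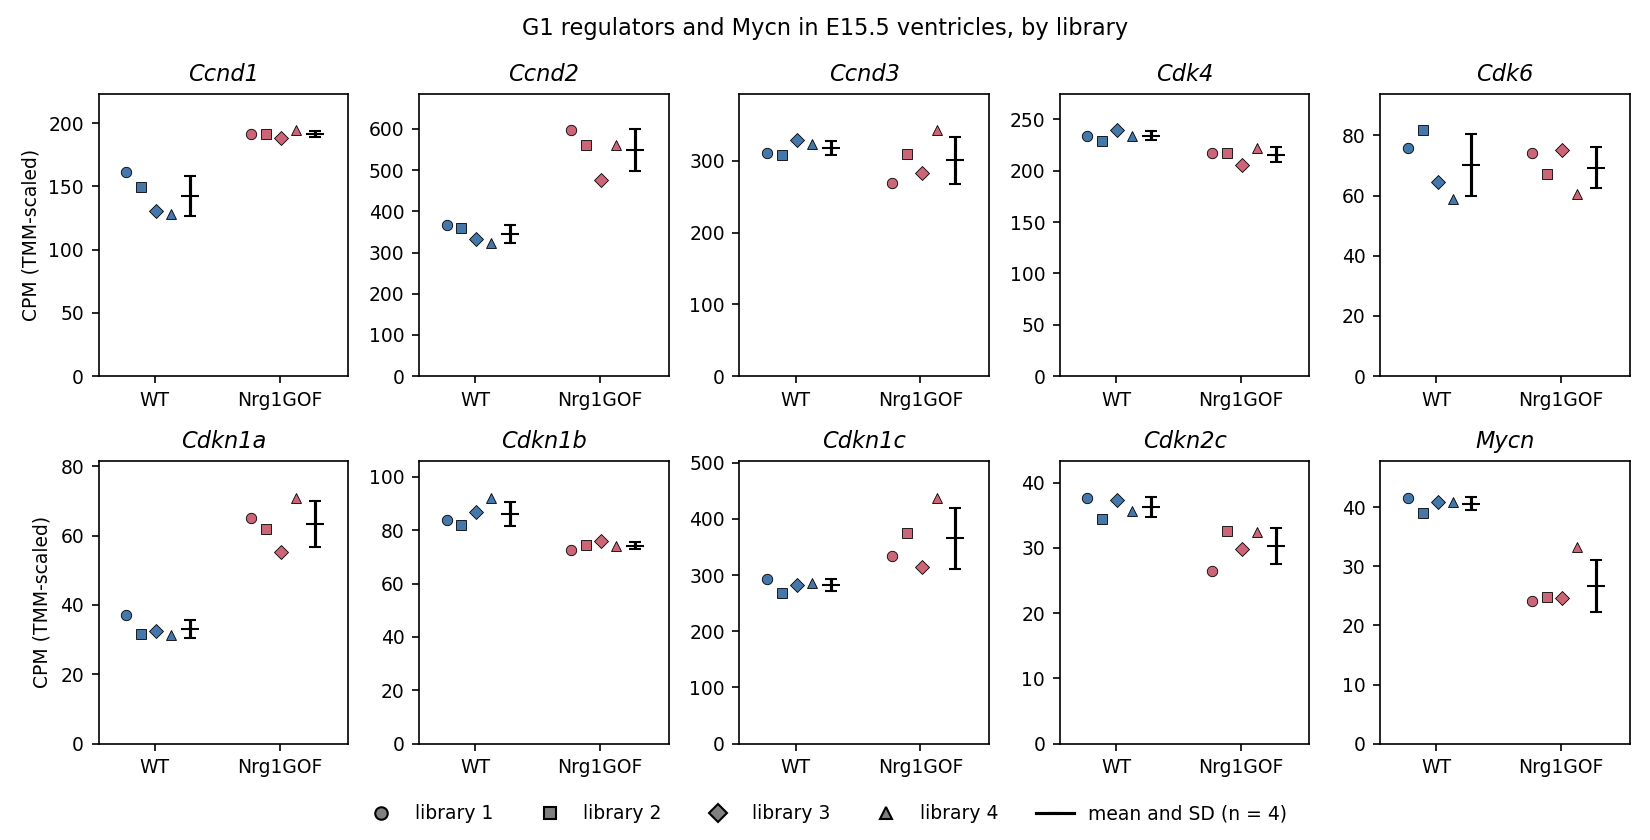
Level of each of the 10 genes in CPM (read counts brought to a common library size by TMM factors, linear axis from 0) in the 4 WT libraries (blue) and the 4 *Nrg1GOF* libraries (red), with symbols for library number and bars for mean and SD. The groups overlap for *Ccnd3* and *Cdk6* and are separate for the other 8 genes.

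**Figure D2:**
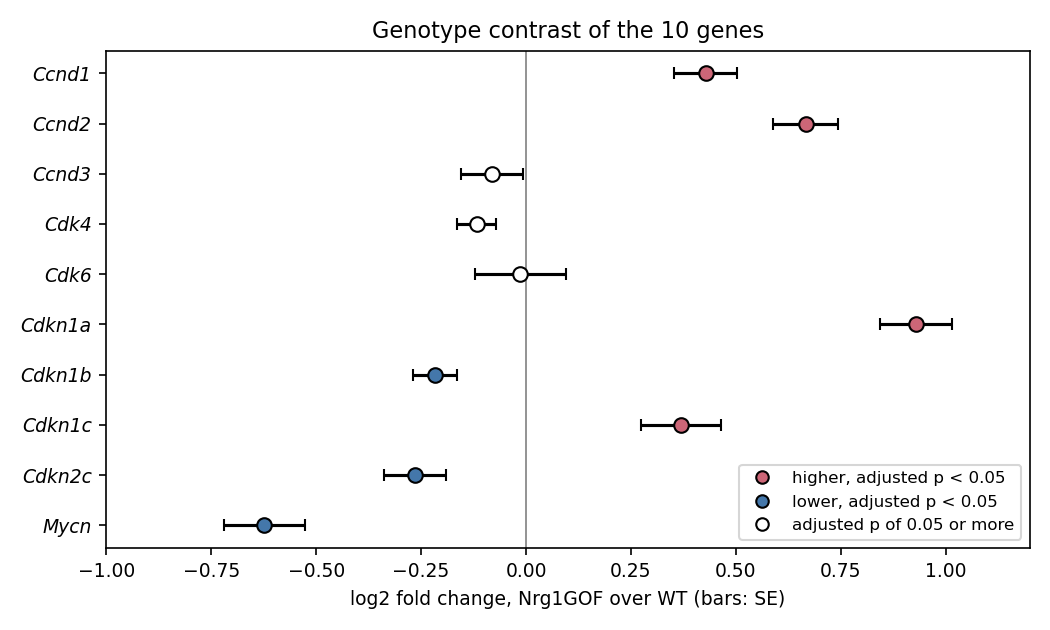
Log2 fold change of *Nrg1GOF* over WT for each gene, with bars for SE and filled points for genes with an adjusted p under 0.05. The values run from -0.62 for *Mycn* to 0.93 for *Cdkn1a*.

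The make-up of the samples differed as well. Library totals ranged from 8038641 (*Nrg1GOF* library 4) to 26786039 counts. *Nrg1* itself was at 59.7 to 63.7 CPM in *Nrg1GOF* and at 3.07 to 4.47 CPM in WT. Markers of 6 cell types were present in these ventricles, and no marker was at 0 in every library. Among all tested genes, 15.9% were called higher and 12.8% lower. Fibroblast and epicardial markers were called higher in 8 of 9 (summed level 5774 to 7469 CPM in *Nrg1GOF*, 3310 to 4434 CPM in WT). The mural gene *Rgs5* in that list was lower (log2 fold change -0.59), whereas *Pdgfrb*, also a mural gene, was higher (0.29). Macrophage markers were higher in 7 of 7 (at least 89.2 CPM in every *Nrg1GOF* library, and between 42.2 and 50.02 CPM in WT). Atrial markers were higher in 3 of 6 (*Myl4*, *Myl7* and *Nr2f2*, summed 1601 to 1774 CPM against 1001 to 1120 CPM). Endothelial markers were higher in 4 of 7 (*Tek*, *Tie1*, *Emcn* and *Npr3*, with all 7 summed 1209 to 1332 CPM against 1133 to 1158 CPM). The endothelial markers *Pecam1*, *Cdh5* and *Kdr* were not called (log2 fold change 0.08, -0.04 and -0.04, adjusted p = 0.295, 0.608 and 0.627). Ventricular cardiomyocyte markers were lower in 4 of 7 (*Myh7*, *Tnnt2*, *Tnni1* and *Myl3*; summed 30540 to 38670 CPM against 40460 to 42970 CPM), and none of 8 red blood cell markers was called by edgeR, DESeq2 or limma-voom, with none at an unadjusted p under 0.05 (5432 to 8897 CPM against 4416 to 13040 CPM). In whole ventricles, a change in the number of cells of a type and a change in RNA per cell cannot be told apart, and the part of these shifts in the values of the 10 genes was not tested apart from 2 covariates. With the mean of the atrial markers as a covariate, *Ccnd2*, *Cdkn1a* and *Cdkn1c* were called, as were 7.95% of tested genes. With the endothelial mean, which separated the genotypes by itself (7.31 to 7.48 against 7.14 to 7.18 on the log2 CPM scale), none of the 10 was called by edgeR, 2 of them (*Cdkn1a* and *Mycn*) had an unadjusted p under 0.05, and 211 of 15580 tested genes were called.

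Promoter sequence was taken for the 7 members that have an entry in the RefSeq promoter set (GRCm38.p6), as the 250 bases before each annotated start. Shown are 3 windows, for the members with the strongest fall and the strongest rise and for *Cdk4*, which was chosen for its 4 E-boxes. The capitals mark all matches to 6 motifs searched on both strands, namely the E-box CACGTG bound by MYC and MAX proteins, the E2F-type words TTTCCCGC, TTTCGCGC, TTTGCCGC and TTTGGCGC, the GC box GGGCGG, the cAMP-response letters TGACGTCA, TATAAA and the p53 response element with at most 1 mismatch. The p53 half-sites had to be paired with no gap, and the mismatch could lie only outside the C(A/T)(A/T)G core of each. The allowance of a mismatch was made after the *Cdkn1a* sequence was seen.

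*Mycn*, chr12:12941837-12942086, minus strand: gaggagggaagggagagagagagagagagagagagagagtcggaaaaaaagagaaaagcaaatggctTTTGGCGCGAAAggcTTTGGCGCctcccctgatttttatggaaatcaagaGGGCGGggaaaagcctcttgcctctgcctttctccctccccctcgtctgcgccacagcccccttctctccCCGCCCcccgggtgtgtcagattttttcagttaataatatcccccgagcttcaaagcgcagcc
*Cdk4*, chr10:127063285-127063534, plus strand: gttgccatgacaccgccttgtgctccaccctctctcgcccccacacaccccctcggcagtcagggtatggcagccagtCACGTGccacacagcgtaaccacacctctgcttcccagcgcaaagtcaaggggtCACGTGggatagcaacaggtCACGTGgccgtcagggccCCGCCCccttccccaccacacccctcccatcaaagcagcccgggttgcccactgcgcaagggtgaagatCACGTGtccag
*Cdkn1a*, outer start, chr17:29090729-29090978, plus strand: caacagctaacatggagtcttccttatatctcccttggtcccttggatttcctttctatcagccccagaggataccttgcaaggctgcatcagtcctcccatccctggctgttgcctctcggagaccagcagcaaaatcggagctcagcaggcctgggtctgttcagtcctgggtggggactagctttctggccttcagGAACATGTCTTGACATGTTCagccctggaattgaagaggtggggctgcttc

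The *Mycn* window held 3 E2F-type matches, 2 of which overlap on opposite strands, and 2 GC boxes. The E2F-type matches begin 183, 179 and 168 bases before the start. Of 32817 windows of the same length, 1.86% held an E2F-type word and 32.7% a GC box. The *Cdk4* window held 4 E-boxes, which begin 172, 118, 98 and 11 bases before the start, and 1 GC box; 6.02% of windows held an E-box. The window of the other kinase gene, *Cdk6*, held 1 E-box (220 bases before the start) and 1 TATAAA (103 bases before it), the latter in 12.4% of windows. The window before the outer *Cdkn1a* start held 1 paired p53 element that begins 51 bases before the start, a match found in 0.0457% of windows. The window before its inner start (chr17:29093519-29093768) held 2 GC boxes and no p53 match. These are matches of letters and were not tested for binding.

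Among the D cyclins, *Ccnd2* (ENSMUSG00000000184, GRCm38 chromosome 6, 127125162 to 127152193, minus strand) changed most. *Nrg1GOF* libraries 1 to 4 held 596, 561, 477 and 561 CPM, and WT libraries 1 to 4 held 368, 360, 333 and 322 CPM. The lowest *Nrg1GOF* library thus stood 109 CPM above the highest WT library. Group means were 549 ± 50.9 and 346 ± 21.7 CPM (SD, n = 4 each), a rise of 58.7%, or 0.67 on the log2 scale (SE 0.08, adjusted p = 0.000237). With the endothelial covariate the difference was 0.19 and was not called (adjusted p = 0.609).

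*Ccnd1* (ENSMUSG00000070348, chromosome 7, 144929931 to 144939925, minus strand), the D cyclin most often tied to mitogen signalling, was at 192, 192, 188 and 194 CPM in *Nrg1GOF* and at 161, 149, 131 and 128 CPM in WT. The *Nrg1GOF* libraries were close together (192 ± 2.51 CPM, SD, n = 4), whereas WT libraries 1 and 2 were above WT libraries 3 and 4 (142 ± 15.6 CPM, SD, n = 4). The groups were separate, and the difference was 0.43 on the log2 scale (SE 0.07, adjusted p = 0.00222). The call was lost with the atrial covariate, where the log2 fold change was 0.28 (adjusted p = 0.138).

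*Ccnd3* (ENSMUSG00000034165, chromosome 17, 47505051 to 47599691, plus strand) was at 269, 309, 283 and 343 CPM in *Nrg1GOF* and at 311, 309, 329 and 324 CPM in WT. The *Nrg1GOF* libraries lay on both sides of the WT values. Its log2 fold change was -0.08 (95% interval -0.23 to 0.07, adjusted p = 0.468). Leaving out each library in turn gave -0.14 to -0.03. Its pseudogene *Ccnd3-ps*, which aligns at 96.2% identity, held at most 0.0855 CPM in any library.

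Per kb of the longest annotated transcript, *Ccnd3* had the highest level of the D cyclins in WT (82.4 ± 2.59 CPM per kb), followed by *Ccnd2* (54.6 ± 3.42) and *Ccnd1* (38.1 ± 4.16; SD, n = 4 each). In *Nrg1GOF*, *Ccnd2* stood at 86.7 ± 8.05 and *Ccnd3* at 78.0 ± 8.40 CPM per kb, with libraries that overlapped (75.3 to 94.2 and 69.8 to 88.8), and *Ccnd1* at 51.2 ± 0.67. The share of *Ccnd2* in the sum of the D cyclins was 30.1% to 32.2% in WT libraries and 37.9% to 43.8% in *Nrg1GOF* libraries, while that of *Ccnd3* went from between 44.3% and 49.6% to between 32.4% and 38.7%. Neither of these shares overlapped between the groups. The share of *Ccnd1* did overlap (20.2% to 23.7% in WT, 22.6% to 25.3% in *Nrg1GOF*). The summed level was 175 ± 5.36 in WT and 216 ± 12.8 CPM per kb in *Nrg1GOF* (SD, n = 4 each). The order depends on the length used, since per kb of all annotated exons the WT levels of *Ccnd2*, *Ccnd3* and *Ccnd1* were 36.7, 36.2 and 30.2. In *Nrg1GOF* they were 58.3, 34.3 and 40.7 on that length, with *Ccnd3* the lowest.

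**Figure D3:**
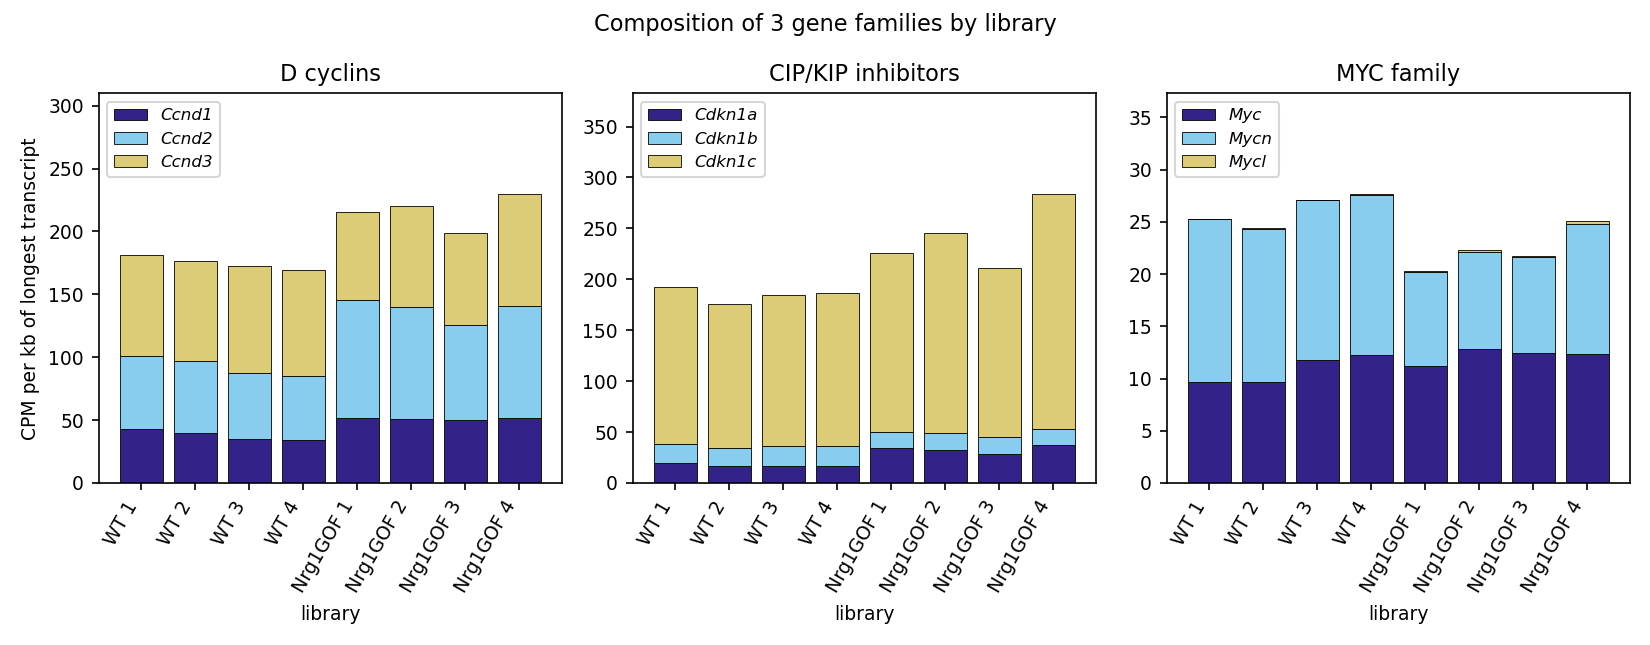
Stacked levels in CPM per kb of the longest transcript for the D cyclins, the CIP/KIP inhibitors and the MYC family in each of the 8 libraries (linear axes from 0). The *Ccnd2* segment is larger in every *Nrg1GOF* library than in any WT library, *Cdkn1c* makes up most of the CIP/KIP sum throughout, and the *Mycn* segment is smaller in every *Nrg1GOF* library than in any WT library.

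The kinase genes changed little. *Cdk4* (ENSMUSG00000006728, chromosome 10, 127063534 to 127067920, plus strand) was at 217, 217, 206 and 222 CPM in *Nrg1GOF* and at 234, 229, 239 and 234 CPM in WT. The groups did not overlap, but the gap between them was 6.60 CPM. On the log2 scale the difference was -0.12 (SE 0.05, adjusted p = 0.0863), which missed the threshold, and with DESeq2 the adjusted p was 0.0430. The 3′ end of *Cdk4* shares 641 exon bases with *Tspan31* on the opposite strand, which was higher in *Nrg1GOF* (63.4 ± 1.76 CPM, log2 fold change 0.30), and with the counts of both summed the difference was -0.032 (adjusted p = 0.652).

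*Cdk6* (ENSMUSG00000040274, chromosome 5, 3341485 to 3531008, plus strand) was at 74.2, 67.2, 75.1 and 60.5 CPM in *Nrg1GOF* and at 75.8, 81.7, 64.7 and 58.9 CPM in WT. The groups overlapped, and WT libraries 1 and 2 were again above WT libraries 3 and 4. The difference on the log2 scale was -0.01 (95% interval -0.23 to 0.20, adjusted p = 0.942). Per kb, *Cdk4* made up 94.0% to 95.7% of the sum of both kinases in WT and 93.9% to 95.4% in *Nrg1GOF*.

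The inhibitors split by gene. *Cdkn1a* (ENSMUSG00000023067, chromosome 17, 29090976 to 29100727, plus strand), a p53 target that arrests cells in G1, rose most of the 10. It was at 65.2, 62.0, 55.3 and 70.9 CPM in *Nrg1GOF* and at 37.0, 31.6, 32.4 and 31.5 CPM in WT. Every *Nrg1GOF* library was above every WT library, by at least 18.3 CPM. The means were 63.3 ± 6.50 and 33.1 ± 2.64 CPM (SD, n = 4 each), 1.90-fold higher, or 0.93 on the log2 scale (SE 0.08, adjusted p = 7.03e-05). The call was lost with the endothelial covariate, at 0.46 (adjusted p = 0.287).

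*Cdkn1c* (ENSMUSG00000037664, chromosome 7, 143458339 to 143461050, minus strand) was at 334, 374, 315 and 437 CPM in *Nrg1GOF* and at 293, 268, 282 and 286 CPM in WT. The groups were separate, and the *Nrg1GOF* libraries were spread more widely (365 ± 54.1 against 282 ± 10.8 CPM, SD, n = 4 each). This was a log2 difference of 0.37 (SE 0.09, adjusted p = 0.0156). When the close WT pairs (libraries 1 and 2, and 3 and 4) were summed to 1 sample each, the value was the same at 0.37 but the adjusted p was 0.0962. With the endothelial covariate it was 0.011 (adjusted p = 0.987).

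*Cdkn1b* (ENSMUSG00000003031, chromosome 6, 134920401 to 134925513, plus strand), whose protein holds cells in quiescence, was at 72.5, 74.3, 75.9 and 74.0 CPM in *Nrg1GOF* and at 84.0, 81.8, 87.0 and 92.1 CPM in WT. The groups were separate by 5.87 CPM. The level was 14.0% lower, or -0.22 on the log2 scale (SE 0.05, adjusted p = 0.0111). The call was lost when all libraries were thinned to the smallest total (-0.16, adjusted p = 0.0840) and when WT pairs were summed (-0.21, adjusted p = 0.0718).

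*Cdkn2c* (ENSMUSG00000028551, chromosome 4, 109660876 to 109667189, minus strand) was at 26.5, 32.5, 29.8 and 32.4 CPM in *Nrg1GOF* and at 37.7, 34.4, 37.3 and 35.6 CPM in WT. The groups were separate by 1.84 CPM, the narrowest gap among the called members. Its log2 difference was -0.26 (SE 0.07, adjusted p = 0.0235). This was the weakest of the 7 calls, and it was lost without *Nrg1GOF* library 3, WT library 1 or WT library 3 (log2 fold change -0.25 each, adjusted p from 0.0524 to 0.0622) and with scaling by library totals (-0.22, adjusted p = 0.0550).

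Per kb, *Cdkn1c* was the most abundant of the CIP/KIP genes and of all 10 members in both groups (148 ± 5.68 in WT and 192 ± 28.4 CPM per kb in *Nrg1GOF*, SD, n = 4 each). It made up 80.3% to 80.5% of the CIP/KIP sum in WT and 77.8% to 81.2% in *Nrg1GOF*. *Cdkn1a* and *Cdkn1b* changed order. In WT, *Cdkn1b* (18.9 ± 0.98) and *Cdkn1a* (17.3 ± 1.38) did not differ beyond their spread on this length, and in *Nrg1GOF* they were at 16.3 ± 0.31 and 33.1 ± 3.40 CPM per kb. Per kb of all annotated exons they were apart in WT already (18.9 and 13.1), and in *Nrg1GOF* stood at 16.3 and 25.0. Below *Cdkn1c* the order in WT was *Cdk4* at 114 ± 2.08, the D cyclins, *Cdkn1b*, *Cdkn1a*, *Mycn* at 15.2 ± 0.43, *Cdkn2c* at 14.7 ± 0.62 and *Cdk6* at 6.09 ± 0.90 CPM per kb (SD, n = 4 each), with *Mycn* and *Cdkn2c* also within their spread. Per kb of all annotated exons, *Cdkn2c* (13.5) stood above *Cdkn1a* (13.1) and *Mycn* (12.3) in WT. Of the other INK4 genes, *Cdkn2d* had a log2 fold change of -0.01 (adjusted p = 0.969), and *Cdkn2a* and *Cdkn2b* were too low to be tested (mean of at most 0.47 CPM in either group).

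*Mycn* (ENSMUSG00000037169, chromosome 12, 12936093 to 12941914, minus strand) was at 24.1, 24.9, 24.6 and 33.2 CPM in *Nrg1GOF* and at 41.6, 39.0, 40.9 and 40.9 CPM in WT. *Nrg1GOF* library 4, the shallowest of the 8, stood above the other *Nrg1GOF* libraries, and it was still 5.70 CPM under the lowest WT library. The means were 26.7 ± 4.37 and 40.6 ± 1.14 CPM (SD, n = 4 each), a level 35.1% lower, or -0.62 on the log2 scale (SE 0.10, adjusted p = 0.00111). Without *Nrg1GOF* library 4 the log2 fold change was -0.72 (adjusted p = 9.32e-05). With the atrial covariate it was -0.46 and was not called (adjusted p = 0.0823).

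*Myc*, the family member that shares the E-box with *Mycn*, was at 28.5 ± 1.66 CPM in *Nrg1GOF* and 25.4 ± 3.17 CPM in WT (SD, n = 4 each), which differ by 0.17 on the log2 scale (SE 0.09, adjusted p = 0.219). *Mycl* was too low to be tested. Per kb, *Mycn* made up 55.4% to 61.6% of the sum of the 3 genes in WT libraries and 41.7% to 49.7% in *Nrg1GOF* libraries, so that the shares did not overlap. In the list of 11 genes of the MYC, MAX and MXD network other than *Mycn*, 10 were tested, and *Mlx* was called higher (0.23, adjusted p = 0.0204) and *Mxi1* lower (-0.21, adjusted p = 0.0159), 2 of 10 (20%) against 28.7% of all tested genes. The call of *Mlx* was lost without any 1 WT library (0.21 to 0.23, adjusted p up to 0.0562), and that of *Mxi1* without WT library 3 (-0.19, adjusted p = 0.0520).

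The other genes of the pathway were described from lists chosen with earlier results of these data known. Of 18 further genes of the G1 to S transition, 16 were tested and 3, or 18.8%, were called, against 28.7% of all tested genes. *Rb1*, the retinoblastoma gene, was higher (log2 fold change 0.24, adjusted p = 0.0432), and its relative *Rbl1* (-0.24, adjusted p = 0.0104) and the kinase gene *Cdk2* (-0.32, adjusted p = 0.0264) were lower. The call of *Rb1* was lost on leaving out any library but *Nrg1GOF* 4 or WT 2 (log2 fold change 0.18 to 0.26, adjusted p up to 0.111). That of *Cdk2* was lost without *Nrg1GOF* 1, 2 or 4 or WT 3 or 4 (-0.31 to -0.27, adjusted p up to 0.0790). *Rbl1* was not called when WT pairs were summed (-0.24, adjusted p = 0.0573) or against WT libraries 3 and 4 alone (-0.17, adjusted p = 0.0828). The E-type cyclins *Ccne1* and *Ccne2* were at -0.01 and -0.05 (adjusted p = 0.972 and 0.737). Of 10 E2F and DP factor genes, *E2f1* (-0.36, adjusted p = 0.00389) and *E2f7* (-0.20, adjusted p = 0.0424) were lower and none was higher (0 at an unadjusted p under 0.05, and 0 with DESeq2 or limma-voom), so that 20% were called. *E2f7* was not called with DESeq2 (-0.20, adjusted p = 0.0593) nor on leaving out any library but *Nrg1GOF* 3 (-0.22 to -0.17). The median log2 fold change was -0.05 for the G1 to S list and -0.14 for the E2F and DP list, beside -0.01 over all tested genes.

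Of 12 p53 target genes other than *Cdkn1a*, 4 were higher and 1 was lower. *Eda2r*, which encodes a receptor of the tumour necrosis factor family, was at 0.72 on the log2 scale (SE 0.13, adjusted p = 0.00259), *Zmat3*, an RNA-binding protein gene, 0.68 (SE 0.09, adjusted p = 0.000491), the antiproliferative gene *Btg2* 0.50 (SE 0.06, adjusted p = 0.000289) and *Phlda3* 0.32 (SE 0.10, adjusted p = 0.0353). With limma-voom *Phlda3* was not called (0.30, adjusted p = 0.0522), which left 3 higher, nor was it without *Nrg1GOF* library 2 or 4 or WT library 1, 2 or 3 (0.24 to 0.32). *Gtse1*, which is also expressed with the mitotic genes, was lower at -0.28 (SE 0.07, adjusted p = 0.0108). Against WT libraries 1 and 2 alone *Gtse1* was at -0.18 (adjusted p = 0.103). With the atrial covariate it was at -0.10 (adjusted p = 0.536) and *Eda2r* at 0.48 (adjusted p = 0.181), neither called. The canonical targets *Mdm2* and *Ccng1* were at 0.07 and -0.08 (adjusted p = 0.404 and 0.470). The median of the list was 0.15, and 15.9% of all tested genes were called higher.

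Genes of later cell-cycle phases were lower in *Nrg1GOF*. Of 20 E2F-regulated S-phase genes, 15 were called lower and none higher (edgeR), with a median log2 fold change of -0.28. The replication genes *Gins1* (-0.65, SE 0.10) and *Rrm2* (-0.52, SE 0.05) changed most, the called genes that changed least were *Mcm4* (-0.20, SE 0.05) and *Chaf1a* (-0.22, SE 0.05), and *Tyms* was at -0.06 (adjusted p = 0.478). Of 20 mitotic genes, 18 were called lower and none higher, with a median of -0.36, from -0.56 (SE 0.06) for the spindle motor gene *Kif11* and -0.53 (SE 0.05) for *Bub1b* to -0.22 (SE 0.05) for *Tpx2* and -0.20 (SE 0.05) for *Cdk1*. The call of *Cdk1* was lost without *Nrg1GOF* library 2 (-0.18, adjusted p = 0.0525) and after thinning (-0.16, adjusted p = 0.0583). Summing WT pairs ended the calls of *Mcm4*, *Chaf1a*, *Tpx2* and *Cdk1* (adjusted p = 0.0917, 0.0746, 0.0705 and 0.106), and those of *Gins1*, *Rrm2*, *Kif11* and *Bub1b* were kept. *Mki67* was at -0.23 (adjusted p = 0.214) and *Cenpa* at -0.35 (adjusted p = 0.134). Neither list had a gene higher at an unadjusted p under 0.05, and DESeq2 and limma-voom also gave 15 and 18 lower and 0 higher. In all tested genes, 12.8% were called lower.

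**Figure D4:**
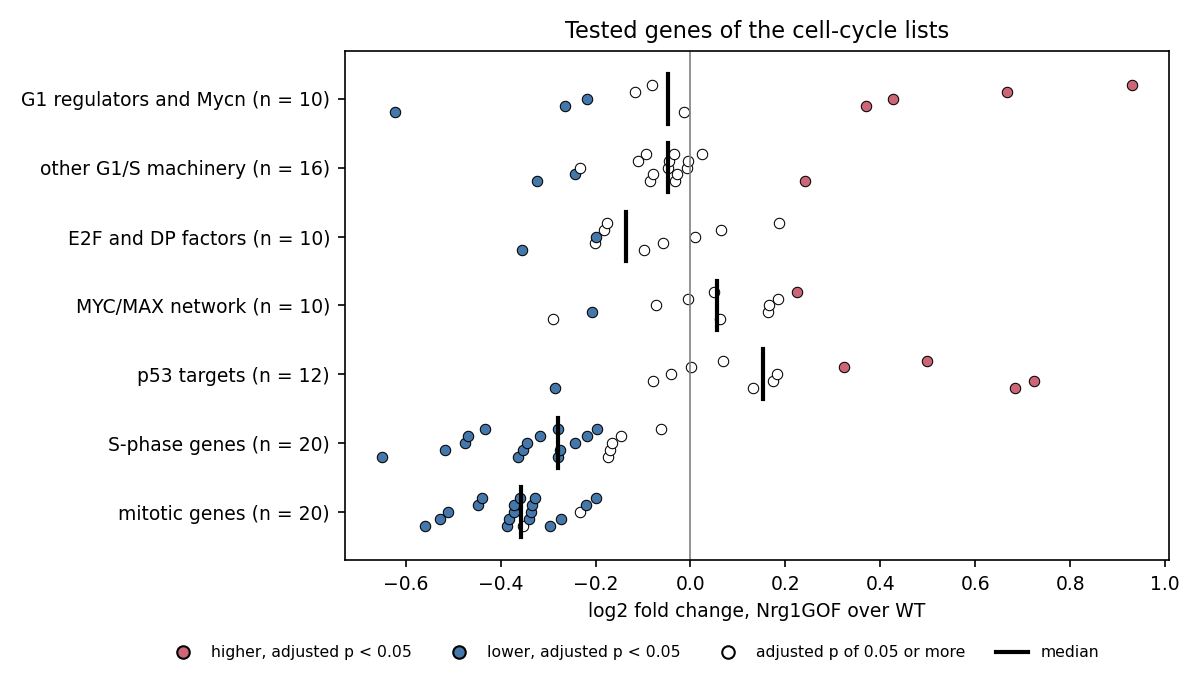
Log2 fold change of *Nrg1GOF* over WT for each tested gene of 7 lists, with red and blue points for genes called higher and lower, open points for genes not called and bars for list medians. S-phase and mitotic genes lie to the left of 0 without exception, with medians of -0.28 and -0.36, whereas the G1 regulators and *Mycn* spread to both sides.

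Neighbours of *Cdkn1c* in its imprinted domain did not follow it as a group. *Kcnq1*, a potassium channel gene, was at 29.4 ± 3.38 CPM in *Nrg1GOF* and 56.3 ± 1.57 CPM in WT (SD, n = 4 each), or -0.95 on the log2 scale (SE 0.08, adjusted p = 3.80e-05). *Kcnq1ot1*, the noncoding RNA transcribed across it on the opposite strand, was at 0.01 (SE 0.36, adjusted p = 0.989). *Slc22a18* was higher (1.54, SE 0.37, adjusted p = 0.0112) at levels of 0.33 and 1.02 CPM. It was not called with WT pairs summed (adjusted p = 0.0558) or when WT libraries 1 and 2 were set aside (1.29, adjusted p = 0.0767), and was too low to be tested with a filter of 1 CPM or after thinning. *Phlda2* was too low to be tested. The strand setting of the counting is not given in the sources used here, so the values of *Kcnq1* and *Kcnq1ot1* are uncertain in this respect. The same holds for *Ccnd1*, *Ccnd2*, *Ccnd3*, *Cdk4*, *Cdk6* and *Cdkn1c*, which share exon bases with genes on the opposite strand. Beside *Tspan31*, these are *LTO1* for *Ccnd1* (log2 fold change -0.09), *Bysl* for *Ccnd3* (0.16), *Gm44732* for *Cdkn1c* (1.39 to 3.76 CPM) and, for *Ccnd2*, *9330179D12Rik*, which was called lower (-1.21, adjusted p = 0.0155) at 1.11 CPM or less, and *Gm43126* at 0.19 CPM or less. *Gm17590*, opposite *Cdk6*, was at 0 in every library. With their counts added to those of the members, no call of a member changed.

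Over the lists of pathway genes, 22 called genes are named above with their values, and the same alternatives were run on each. They were picked as called genes, so that their calls could only be kept or lost. With WT pairs summed, 9 kept their call, namely *E2f1*, *Btg2*, *Zmat3*, *Eda2r*, *Gins1*, *Rrm2*, *Kif11*, *Bub1b* and *Kcnq1*. Against WT libraries 1 and 2 alone 15 kept it, and against WT libraries 3 and 4 alone 14. With the atrial covariate 8 did, namely *Btg2*, *Zmat3*, *Rrm2*, *Chaf1a*, *Kif11*, *Bub1b*, *Kcnq1* and *Slc22a18*. With the endothelial covariate *Kcnq1* alone was called.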

How the data were processed

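Poly(A) RNA of E15.5 ventricles was sequenced as single reads of 60 bases from directional libraries made with 100 ng of RNA. The table that the authors deposited holds expected counts of each gene (GRCm38, Ensembl release 91 by its name). The submitters' processing notes name cutadapt and RSEM 1.3.1, and the aligner and strand setting are not given in the sources used here. Expected counts were rounded, filtered with filterByExpr, scaled by TMM and compared with edgeR 4.0.16 (R 4.3.3; glmQLFit and glmQLFTest) with genotype as the sole term, all 8 libraries in 1 fit, and Benjamini-Hochberg adjustment over 15580 genes. The study's methods name edgeR too, with a threshold of 0.05. Each SE was taken as |log2 fold change| over the root of the F statistic, and 95% intervals span 1.96 SE to each side. CPM per kb used transcript lengths of GENCODE M21 (GRCm38) for the transcripts named in the table.

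The members and lists were chosen with earlier results of these data known. Named genes are the 10 members, from each other list the genes behind a count of 5 or fewer and otherwise the called genes with the 2 highest and 2 lowest log2 fold changes (cell-type marker lists with more calls are given by sums only), genes overlapping a member on the opposite strand, pseudogenes of a member and *Nrg1*. *Ccne1*, *Ccne2*, *Cdkn2a*, *Cdkn2b*, *Cdkn2d*, *Myc*, *Mycl*, *Kcnq1ot1*, *Phlda2*, *Mdm2*, *Ccng1*, *Tyms*, *Mki67*, *Cenpa* and *Rgs5* were named after their values were seen. So were *Pdgfrb*, *Pecam1*, *Cdh5* and *Kdr*. Pseudogenes were aligned with BLAST+ 2.17.0 (at least 500 bases and 80% of their length). Of 53465 identifiers, 53274 were matched to a symbol. The floor of 3 counts was 0.112 CPM in the deepest and 0.373 CPM in the shallowest library (library totals 8038641 to 26786039) and covers counting error only. Alternatives were DESeq2 1.42.0, limma-voom (limma 3.58.1), the likelihood ratio test, other scalings, filters and thresholds, unrounded and thinned counts, a replicate block, subsets and sums of WT libraries, 2 marker covariates and leaving out each library. Adding aligned pseudogenes or opposite-strand genes was chosen after the data were seen.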

Additional observations from a re-analysis of the deposited data

Results flagged for a closer look

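Dixon's test at the 95% level was used to find single libraries that lie apart within a group of 4. Its ratio is the distance of the extreme library from its neighbour over the whole range. Of 22 groups of values (10 genes and the library total in each genotype), 3 held such a library, where chance at 1 in 20 gives 1.1. The total of *Nrg1GOF* library 4 was 8038641 counts, against 20578081 to 22547833 in the other *Nrg1GOF* libraries (ratio 0.864). *Mycn* in the same library was at 33.2 CPM, against 24.1 to 24.9 CPM in the others (ratio 0.917). *Cdkn1a* in WT library 1 was at 37.0 CPM, against 31.5 to 32.4 CPM in the others (ratio 0.834).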

How the results depend on the processing

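Alternatives gave 1342 values, of which 1098 stayed on the same side of 0 and of the threshold or moved little, 172 lost a call, 1 gained one, 12 reversed and 59 moved. *Cdkn1a* and *Ccnd2* were called in 26 of 27 alternatives of model, scaling, filter and samples, *Ccnd1* and *Mycn* in 25, *Cdkn1c* in 23, *Cdkn1b* in 22 and *Cdkn2c* in 18. Low levels are least certain in *Nrg1GOF* library 4, which is the shallowest.

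When each of the 8 libraries was left out in turn, 6 to 7 members were called, 4 higher and 2 to 3 lower. In all, 3239 to 4261 genes were called, or 20.4% to 27% of those tested. The log2 fold change was -0.30 to -0.20 for *Cdkn2c* and -0.092 to 0.064 for *Cdk6*, which was near 0 and crossed it.

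With the WT pairs summed, 4 members were called, 1 of them lower, and 2464 genes in all (15.3% of those tested, 1548 higher, 916 lower). Of these genes, 27 were in the other pathway lists, where 47 were called with 8 libraries. Summing leaves fewer samples. *Cdkn1b* was at -0.21, *Cdkn1c* at 0.37 and *Cdkn2c* at -0.26, none called. Against WT libraries 1 and 2 alone, 4 members were called, 1 lower, among 18.6% of tested genes, with 1308 genes lower. There *Cdkn1b* was at -0.16, *Cdkn1c* at 0.38 and *Cdkn2c* at -0.26. Against WT libraries 3 and 4 alone, *Cdkn1c* at 0.37 and *Cdkn2c* at -0.27 lost their call.

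The atrial covariate left 3 members called and 0 lower, 1238 genes in all (7.95% of those tested, 768 higher, 470 lower) and 19 pathway genes. *Ccnd1* was at 0.28, *Cdkn1b* at -0.18, *Cdkn2c* at -0.23 and *Mycn* at -0.46, and *Ccnd3* reversed to 0.066. The endothelial covariate left 0 members, 211 genes (110 higher, 101 lower) and 1 pathway gene. *Ccnd1* was at 0.36, *Ccnd2* at 0.19, *Cdkn1a* at 0.46, *Cdkn1b* at -0.12, *Cdkn1c* at 0.011, *Cdkn2c* at -0.19 and *Mycn* at -0.79, and *Cdk2* reversed to 0.069. The endothelial mean separates the genotypes and the atrial mean nearly does (4.28 to 5.24 in WT, 5.21 to 5.98 in *Nrg1GOF*), so that covariate and genotype cannot be told apart.

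*Cdk6* reversed to 0.0083 with limma-voom, 0.031 with library totals and 0.00083 with a filter of 1 CPM in 4 libraries. It also reversed to 0.023 after thinning, 0.18 against WT libraries 3 and 4 and 0.14 with the endothelial covariate. Moves the other way were to -0.18 against WT libraries 1 and 2 alone and -0.30 with the atrial covariate, neither called. *Cdkn2c* lost its call with library totals (-0.22), *Cdkn1b* after thinning (-0.16), and *Cdk4* gained one with DESeq2 (-0.12). The cause was not tested. Library totals moved the share of higher calls from 55.4% to 65.4%.

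An adjusted p under 0.01 left 4 members (1 lower), 2535 of 15580 tested genes (1503 higher, 1032 lower) and 29 pathway genes. It left out *Cdkn1b* (-0.22), *Cdkn1c* (0.37) and *Cdkn2c* (-0.26). A log2 change of at least 1 left 0 members, 724 of 15580 tested genes (582 higher, 142 lower) and 1 pathway gene. Under it lie *Ccnd1* (0.43), *Ccnd2* (0.67), *Cdkn1a* (0.93), *Cdkn1b* (-0.22), *Cdkn1c* (0.37), *Cdkn2c* (-0.26) and *Mycn* (-0.62).

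Replicate numbers 1 to 4 come from the sample labels and do not mark a shared animal. Equal numbers correlated at 0.13, 0.05, 0.20 and 0.07 in their deviations from the group means, and *Nrg1GOF* libraries 1 and 2 correlated better with another number. With the replicate block, 7 members and 4524 genes (29% of those tested) were called, and the call of no member changed.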
